A study of Arabidopsis thaliana with 4 samples.

Results

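The genes encoded in the 2 organelle genomes of Arabidopsis thaliana were taken from a table of 27322 gene models by locus name alone: models whose identifier starts with ATCG lie in the chloroplast genome and those starting with ATMG in the mitochondrial genome. The rule gave 192 models, 81 of the chloroplast and 111 of the mitochondrion, and the genomes are described apart. RNA came from shoot apices of 6-week inflorescences with the older flowers removed, in the wild type Col-0 (WT) and the double mutant mp319 clv3-7 (mp clv3). Col-0 is the accession used as the control and carries neither mutation. MP (MONOPTEROS) encodes an auxin response factor, and CLV3 (CLAVATA3) encodes a secreted peptide that limits the number of stem cells in the shoot meristem. Plants of both genotypes were stratified for 2 days at 4°C and grown in a greenhouse at 22°C with 16 h of light and 8 h of dark. How many plants were pooled per sample is unknown from the sources used here. Poly(A) RNA was sequenced. The labels give 2 biological replicates per genotype, but the deposited table holds 1 column of reads per genotype, with 103347441 reads in mp clv3 and 101878433 in WT, so no difference here was set against the spread between replicates. Intervals are 95% exact intervals on read pairs and cover counting error only.

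Chloroplasts keep a small circular genome that encodes core subunits of the photosynthetic complexes, the large subunit of Rubisco, part of the plastid ribosome and the core of a bacterial-type RNA polymerase. Most of these genes lie in clusters that are transcribed together, by that polymerase and by phage-type polymerase encoded in the nucleus. The RNAs of the clusters are then cut into many overlapping RNAs. Mitochondria keep genes for subunits of the respiratory chain and ATP synthase, for cytochrome c maturation and for ribosomal proteins. In both organelles a poly(A) tail is short and marks an RNA for decay, so a poly(A)-selected library holds an unknown share of the organelle RNA and its levels need not be those of the total RNA.

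Sequences of 3 short chloroplast genes are given first because they stand at the ends of the range of ratios described below: psbM (lowest ratio), petN (next to lowest) and rpl36 (among the 3 least changed). They are coding sequences from RefSeq (TAIR10.1, chloroplast genome of 154478 bases), 5′ to 3′, with runs of at least 4 A in capitals. psbM lies at Pltd:28707-28811 on the minus strand, petN at Pltd:28089-28178 on the plus strand and rpl36 at Pltd:79489-79602 on the minus strand.
psbM: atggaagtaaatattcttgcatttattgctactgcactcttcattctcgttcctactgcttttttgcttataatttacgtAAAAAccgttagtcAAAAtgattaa
petN: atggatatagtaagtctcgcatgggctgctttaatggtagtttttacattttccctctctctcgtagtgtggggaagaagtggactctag
rpl36: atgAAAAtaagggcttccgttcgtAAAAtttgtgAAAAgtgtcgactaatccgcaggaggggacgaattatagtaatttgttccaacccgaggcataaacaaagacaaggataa
The longest run of A in petN was 2 bases, in psbM 5 and in rpl36 4.

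All chloroplast genes gave fewer reads in mp clv3. They held 0.498% of all reads in mp clv3 (514185 reads, 0.496% to 0.499%) and 1.07% in WT (1085746 reads, 1.06% to 1.07%), 2.14-fold lower (interval 2.13 to 2.15). Every one of the 81 models was called lower at a false discovery rate under 0.05 in the authors' deposited table, where 43.5% of all models were called lower, and 49.3% of those with at least 100 reads in a column. With a ratio of at least 2-fold as well, 50 of the 81 were called lower in the authors' deposited table, against 21.3% of all models and 18.8% of those with at least 100 reads. The median log2 ratio over the 81 was -1.13, beside -0.15 over all 23060 models with enough reads for a ratio. In bulk tissue, fewer cells with developed chloroplasts and less chloroplast RNA per cell cannot be told apart.

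Marker genes of flowers, pollen and the shoot meristem also differed between the columns, and the cell make-up of the apices was not tested. The flower markers AP1 and AP3, 2 of the 3 listed, summed to 207 RPKM (reads scaled by model length and total) in WT against 0.176 RPKM in mp clv3, and neither was at 0. AP1 gave 14281 reads in WT and 20 in mp clv3. The pollen markers VGD1 and PGA4 summed to 8.90 RPKM in WT against 0.649 RPKM in mp clv3. Of the shoot meristem markers, STM gave 9556 reads in WT and 30588 in mp clv3, while KNAT1 gave 8319 in WT and 2125 in mp clv3. The flower and pollen markers were thus lower in mp clv3 together with the chloroplast genes, and their part in that difference was not tested. The third flower marker listed, AG, was not analysed here.

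**Figure D1:**
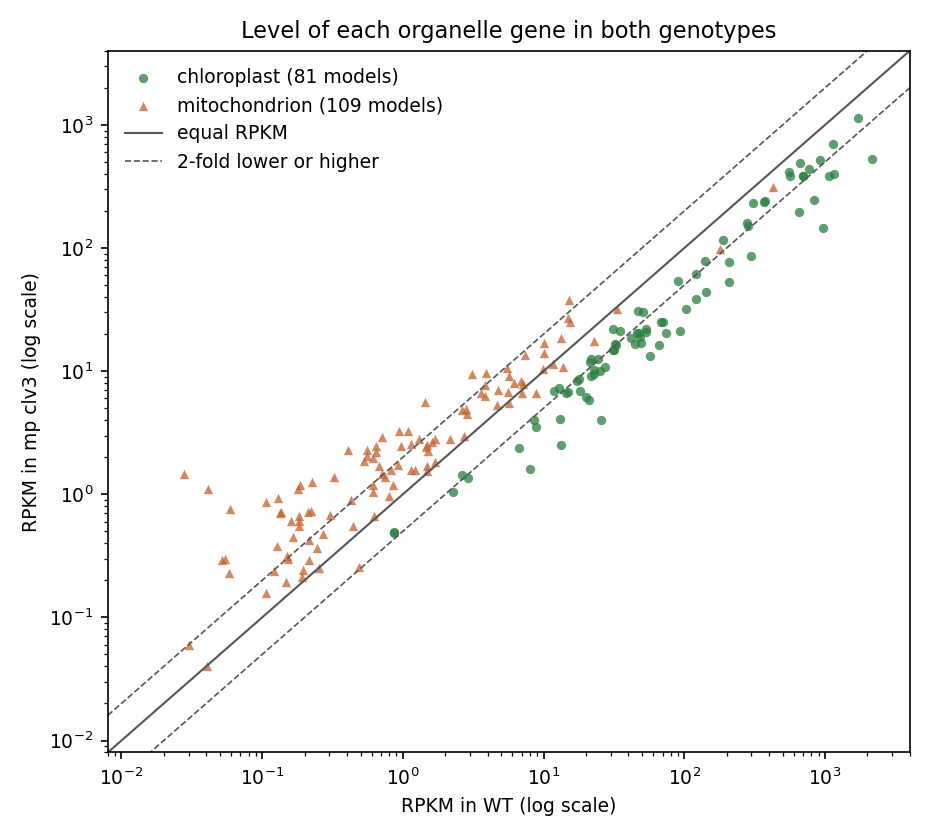
RPKM of each organelle gene in WT (horizontal) and mp clv3 (vertical), both on log scales, with chloroplast models as circles and mitochondrial models as triangles; the 2 mitochondrial models with 0 reads in WT are not drawn. All 81 chloroplast models lie below the line of equal RPKM and most mitochondrial models lie above it.

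In WT the chloroplast genes spanned 0.865 to 2142 RPKM. Counting each of the 5 named genes of the inverted repeat once gave 76 genes, with the 2 unnamed models counted apart. Their median was 47.4 RPKM in WT and 19.6 RPKM in mp clv3. The highest level in WT was that of rpl32 (2142 RPKM in WT and 525 in mp clv3), followed by rpl16 (1723 RPKM in WT and 1144 in mp clv3), atpE (1161 RPKM in WT and 402 in mp clv3), rpl14 (1148 RPKM in WT and 697 in mp clv3) and atpB (1060 RPKM in WT and 385 in mp clv3). In mp clv3 the first place passed to rpl16 and rpl32 came to rank 3. The transcripts of psbA and rbcL, which are known as abundant RNAs of leaf chloroplasts, ranked 34 and 33 of 76 in WT in these poly(A)-selected libraries. The order of the genes was nearly kept between genotypes (Spearman rho 0.971 over 76 genes of the same 2 columns, which share gene lengths and base composition). The largest moves down were those of petN, from rank 50 to 68, rbcL, from 33 to 48, matK, from 32 to 45, and psbM, from 6 to 17.

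The photosynthesis genes as a group were lower by more than the genes of the plastid genetic system. Photosynthesis genes (46 models) had a median log2 ratio of -1.33, and 36 of them were called at least 2-fold lower in the authors' deposited table. The 26 models for ribosomal proteins and RNA polymerase had a median of -0.82, and 9 of them were called at least 2-fold lower in the authors' deposited table. Of all models, 21.3% were called at least 2-fold lower there, and 18.8% of those with at least 100 reads. Photosynthesis genes took 48.2% of the chloroplast reads in WT and 36.2% in mp clv3, while ribosomal protein genes took 45.7% in WT and 56.1% in mp clv3. Both groups of genes were lower against the total reads, and the ribosomal protein genes were the larger part of what remained.

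**Figure D2:**
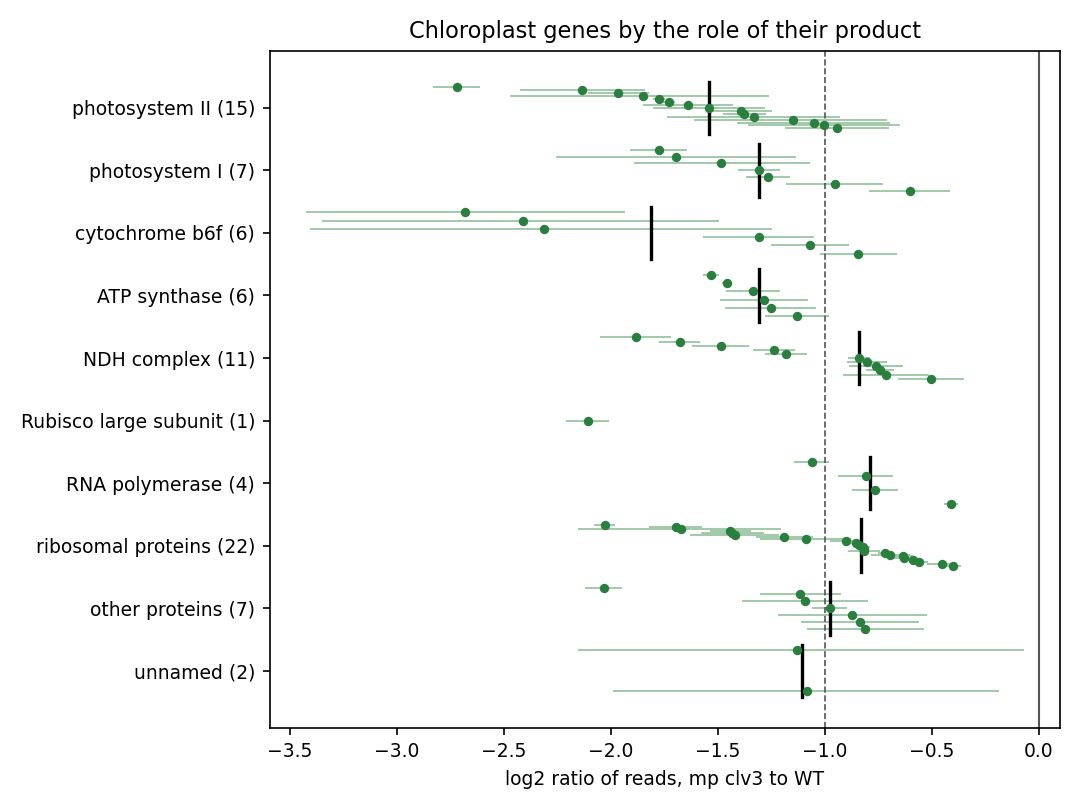
Log2 ratio of reads, mp clv3 to WT, for each of the 81 chloroplast models, grouped by the role of the product with the number of models in brackets; points carry 95% counting intervals, black bars are group medians and the dashed line marks 2-fold lower. Among the groups of over 1 gene, medians run from -1.81 for cytochrome b6f to -0.79 for the RNA polymerase; rbcL lies at -2.11, and no point reaches 0.

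Photosystem II, which splits water and passes its electrons to plastoquinone, had the lowest median of the groups with over 6 genes (-1.54, 15 genes). Of the 15, 14 were called at least 2-fold lower in the authors' deposited table, where 21.3% of all models were. psbM, a small subunit at the interface of the photosystem II dimer, gave 10321 reads in WT and 1589 in mp clv3, 6.59-fold lower (log2 ratio -2.72, interval -2.83 to -2.61) and the lowest ratio of all chloroplast genes. The reaction centre protein D2, encoded by psbD, gave 90014 reads in WT and 26714 in mp clv3 (log2 ratio -1.77). The inner antenna protein CP43 is encoded by psbC, which gave 94298 reads in WT and 28865 in mp clv3 (-1.73). The coding sequences of psbD and psbC overlap by 53 bases, so reads in the overlap cannot be given to one of them. The other reaction centre protein, D1, is encoded by psbA, which gave 5822 reads in WT and 2275 in mp clv3 (-1.38). psbB, for the inner antenna protein CP47, gave 2827 reads in WT and 1093 in mp clv3 (-1.39). The genes of the reaction centre and of the inner antenna were thus all more than 2-fold lower.

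Among the small subunits of photosystem II, psbI gave 1052 reads in WT and 243 in mp clv3 (-2.13). psbZ gave 4006 reads in WT and 1041 in mp clv3 (-1.96). psbK gave 933 reads in WT and 325 in mp clv3 (-1.54). These lay below or at the median of the complex. psbJ gave 1510 reads in WT and 492 in mp clv3 (-1.64). psbT gave 220 reads in WT and 62 in mp clv3 (-1.85, interval -2.47 to -1.26). psbL gave 271 reads in WT and 124 in mp clv3 (-1.15). Cytochrome b559, the haem protein of the complex, is encoded by psbE and psbF, which had the ratios nearest to 0 of the complex. psbE gave 822 reads in WT and 433 in mp clv3 (-0.95). psbF gave 401 reads in WT and 203 in mp clv3 (-1.003). psbH, for a phosphoprotein of the complex, gave 404 reads in WT and 198 in mp clv3 (-1.05). The assembly factor gene psbN gave 365 reads in WT and 147 in mp clv3 (-1.33). It lies on the strand opposite to psbT and psbH, and whether the counting used the strand is unknown from the sources used here.

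Photosystem I, which reduces ferredoxin, was lower in each of its 5 subunit genes and 2 assembly factor genes, with a median of -1.31. The reaction centre genes were close to each other: psaA gave 5277 reads in WT and 2225 in mp clv3 (-1.27), and psaB gave 5613 reads in WT and 2299 in mp clv3 (-1.31). The small subunit gene psaJ gave 4087 reads in WT and 1210 in mp clv3 (-1.78), the lowest ratio of the group. psaI gave 233 reads in WT and 73 in mp clv3 (-1.70, interval -2.26 to -1.14). psaC, for the subunit that carries the terminal iron-sulfur clusters, had the ratio nearest to 0 with 1171 reads in WT and 781 in mp clv3 (-0.60). The intervals of psaJ and psaC did not overlap. The assembly factor gene ycf4 gave 378 reads in WT and 137 in mp clv3 (-1.48). ycf3, for the other assembly factor, gave 941 reads in WT and 493 in mp clv3 (-0.95).

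The cytochrome b6f complex, which links the photosystems, split by gene size. Its longer genes were petA for cytochrome f, petB for cytochrome b6 and petD for subunit IV. petA gave 860 reads in WT and 352 in mp clv3 (-1.31). petB gave 1412 reads in WT and 798 in mp clv3 (-0.84), and petD gave 1535 reads in WT and 741 in mp clv3 (-1.07). Their counts were low but their ratios were all above the group median of -1.81. The small subunit genes were lower on fewer reads. petN gave 234 reads in WT and 37 in mp clv3 (-2.68, interval -3.43 to -1.94). petL gave 131 reads in WT and 25 in mp clv3 (-2.41, interval -3.35 to -1.49), and petG had under 100 reads in both columns. Without petG, the median of the other 5 was -1.31.

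The plastid ATP synthase was the most even of these complexes, within -1.53 to -1.13. All 6 genes were called at least 2-fold lower in the authors' deposited table, where 21.3% of all models were. atpB, for the beta subunit that carries the catalytic sites, gave 161598 reads in WT and 59609 in mp clv3 (-1.46). atpE, for the epsilon subunit, overlaps atpB by 4 bases and gave 47198 reads in WT and 16565 in mp clv3 (-1.53). These genes held 19.2% of all chloroplast reads in WT and 14.8% in mp clv3. The other 4 are read from the other cluster at far fewer reads. atpA, for the alpha subunit, gave 2317 reads in WT and 1075 in mp clv3 (-1.13). atpF, for a subunit of the peripheral stalk, gave 1221 reads in WT and 520 in mp clv3 (-1.25). The ring subunit gene atpH gave 1347 reads in WT and 561 in mp clv3 (-1.28), and atpI, for the subunit a that faces the ring, gave 3676 reads in WT and 1477 in mp clv3 (-1.34). atpA and atpB encode partners of one catalytic head, yet atpB stood at 1060 RPKM in WT and 385 in mp clv3 and atpA at 14.9 RPKM in WT and 6.83 in mp clv3.

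The NDH complex, a proton pump of cyclic electron flow, fell into separate sets by position. The genes ndhC, ndhK and ndhJ of one cluster were the lowest. ndhC gave 2762 reads in WT and 759 in mp clv3 (-1.88). ndhK gave 7093 reads in WT and 2248 in mp clv3 (-1.68), and ndhJ gave 3436 reads in WT and 1244 in mp clv3 (-1.49). The copies of ndhB in the inverted repeat followed, at -1.18 and -1.24. The genes of the cluster in the small single-copy region were nearest to 0. ndhH gave 17028 reads in WT and 9643 in mp clv3 (-0.84), and ndhA gave 9918 reads in WT and 6010 in mp clv3 (-0.74). ndhI gave 2707 reads in WT and 1620 in mp clv3 (-0.76). ndhE gave 1089 reads in WT and 673 in mp clv3 (-0.71), and ndhG gave 1690 reads in WT and 1208 in mp clv3 (-0.51). ndhF, which stands apart from that cluster, gave 4971 reads in WT and 2892 in mp clv3 (-0.80). None of these 6 genes reached 2-fold, while all 5 models of the former sets did.

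rbcL, for the large subunit of Rubisco, the enzyme that fixes CO2, gave 8389 reads in WT and 1973 in mp clv3, 4.31-fold lower (4.02 to 4.63). Its log2 ratio of -2.11 ranked 6 of 76 from the lowest, just below matK and rpl32.

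The genes of the plastid genetic system had ratios nearer to 0, with exceptions. Of the subunits of the plastid-encoded RNA polymerase, rpoA (alpha) gave 31214 reads in WT and 23817 in mp clv3 (-0.41). rpoB (beta) gave 3858 reads in WT and 2300 in mp clv3 (-0.77). rpoC1 gave 2660 reads in WT and 1539 in mp clv3 (-0.81), and rpoC2 gave 7255 reads in WT and 3523 in mp clv3 (-1.06). Their RPKM in WT was 309 for rpoA and 11.8 to 17.2 for the other 3, which lie in another cluster. Among 22 models for ribosomal proteins, all 22 were called lower and 8 at least 2-fold lower in the authors' deposited table, with a median of -0.83. rpl32 was the lowest, with 34701 reads in WT and 8629 in mp clv3, 4.08-fold lower (3.95 to 4.22). rps18 gave 4436 reads in WT and 1387 in mp clv3 (-1.70), and its neighbour rpl33 gave 1387 reads in WT and 525 in mp clv3 (-1.42). rps16 gave 320 reads in WT and 102 in mp clv3 (-1.67, interval -2.15 to -1.21). rps14, which is read with the photosystem I genes psaA and psaB, gave 6448 reads in WT and 2407 in mp clv3 (-1.44). Its ratio was closer to those of psaA and psaB than to the median of the ribosomal proteins. rps4 gave 2770 reads in WT and 1041 in mp clv3 (-1.43). rps2, at the head of the ATP synthase cluster, gave 3051 reads in WT and 1357 in mp clv3 (-1.19), and rpl20 gave 1133 reads in WT and 540 in mp clv3 (-1.09). These 8 lie outside the large ribosomal protein cluster. rps15, which also lies outside it, gave 5153 reads in WT and 3230 in mp clv3 (-0.69).

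The large ribosomal protein cluster runs from rpl23 to rpoA, and none of its 10 genes analysed here reached 2-fold. These 10 held 33.7% of chloroplast reads in WT and 45.3% in mp clv3. Among the genes of the cluster given here, the ratios ran from -0.84 in rpl2 to -0.41 in rpoA. rpl22 gave 37861 reads in WT and 21709 in mp clv3 (-0.82). rps3, which overlaps rpl22 by 16 bases, gave 61179 reads in WT and 35156 in mp clv3 (-0.82). rpl16, the single ribosomal protein model with the most reads in both columns, gave 71601 reads in WT and 48257 in mp clv3 (-0.59). In the middle of the cluster, rpl14 gave 43158 reads in WT and 26598 in mp clv3 (-0.72). Towards its end, rpl36 gave 7755 reads in WT and 5747 in mp clv3 (-0.45), and rpoA, the last gene of the cluster, was 1.33-fold lower (1.30 to 1.36).

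Of the remaining named genes, matK, for the maturase that helps to splice group II introns, gave 10677 reads in WT and 2646 in mp clv3 (-2.03). It was the lowest of this mixed group. ccsA, for a protein of plastid cytochrome c maturation, gave 1454 reads in WT and 681 in mp clv3 (-1.11). The envelope protein gene cemA gave 603 reads in WT and 287 in mp clv3 (-1.09). clpP, for the proteolytic subunit of the Clp protease, gave 7285 reads in WT and 3754 in mp clv3 (-0.98). accD, for a subunit of the acetyl-CoA carboxylase of fatty acid synthesis, gave 395 reads in WT and 219 in mp clv3 (-0.87). The other 2 models were the copies of ycf2, at -0.84 and -0.81. Only 3 chloroplast models had under 100 reads in both columns, with ratios from -2.31 to -1.08.

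The inverted repeat holds 5 of the named genes in copies with 100% identical coding sequences, so reads cannot be told apart between them. The 2 unnamed chloroplast models were not compared in sequence. Copies of ndhB gave 5523 and 5690 reads in WT and 2467 and 2445 in mp clv3. rpl2 gave 58288 and 58512 in WT and 32958 and 32836 in mp clv3 (log2 ratios -0.84 and -0.85). rpl23 gave 8053 and 8163 in WT and 4634 and 4433 in mp clv3 (-0.82 and -0.90). The copies thus received nearly equal numbers of reads in each column. rps7 gave 17556 and 17724 in WT and 11447 and 11595 in mp clv3 (-0.64 and -0.63). For ycf2 the values were 608 and 607 in WT and 345 and 351 in mp clv3. Each of these pairs is 1 gene. It was counted once in the ranks over 76 genes and in the comparisons over 74 distinct genes, while counts, medians and shares over models include both copies. How the reads were divided is unknown from the sources used here.

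**Figure D3:**
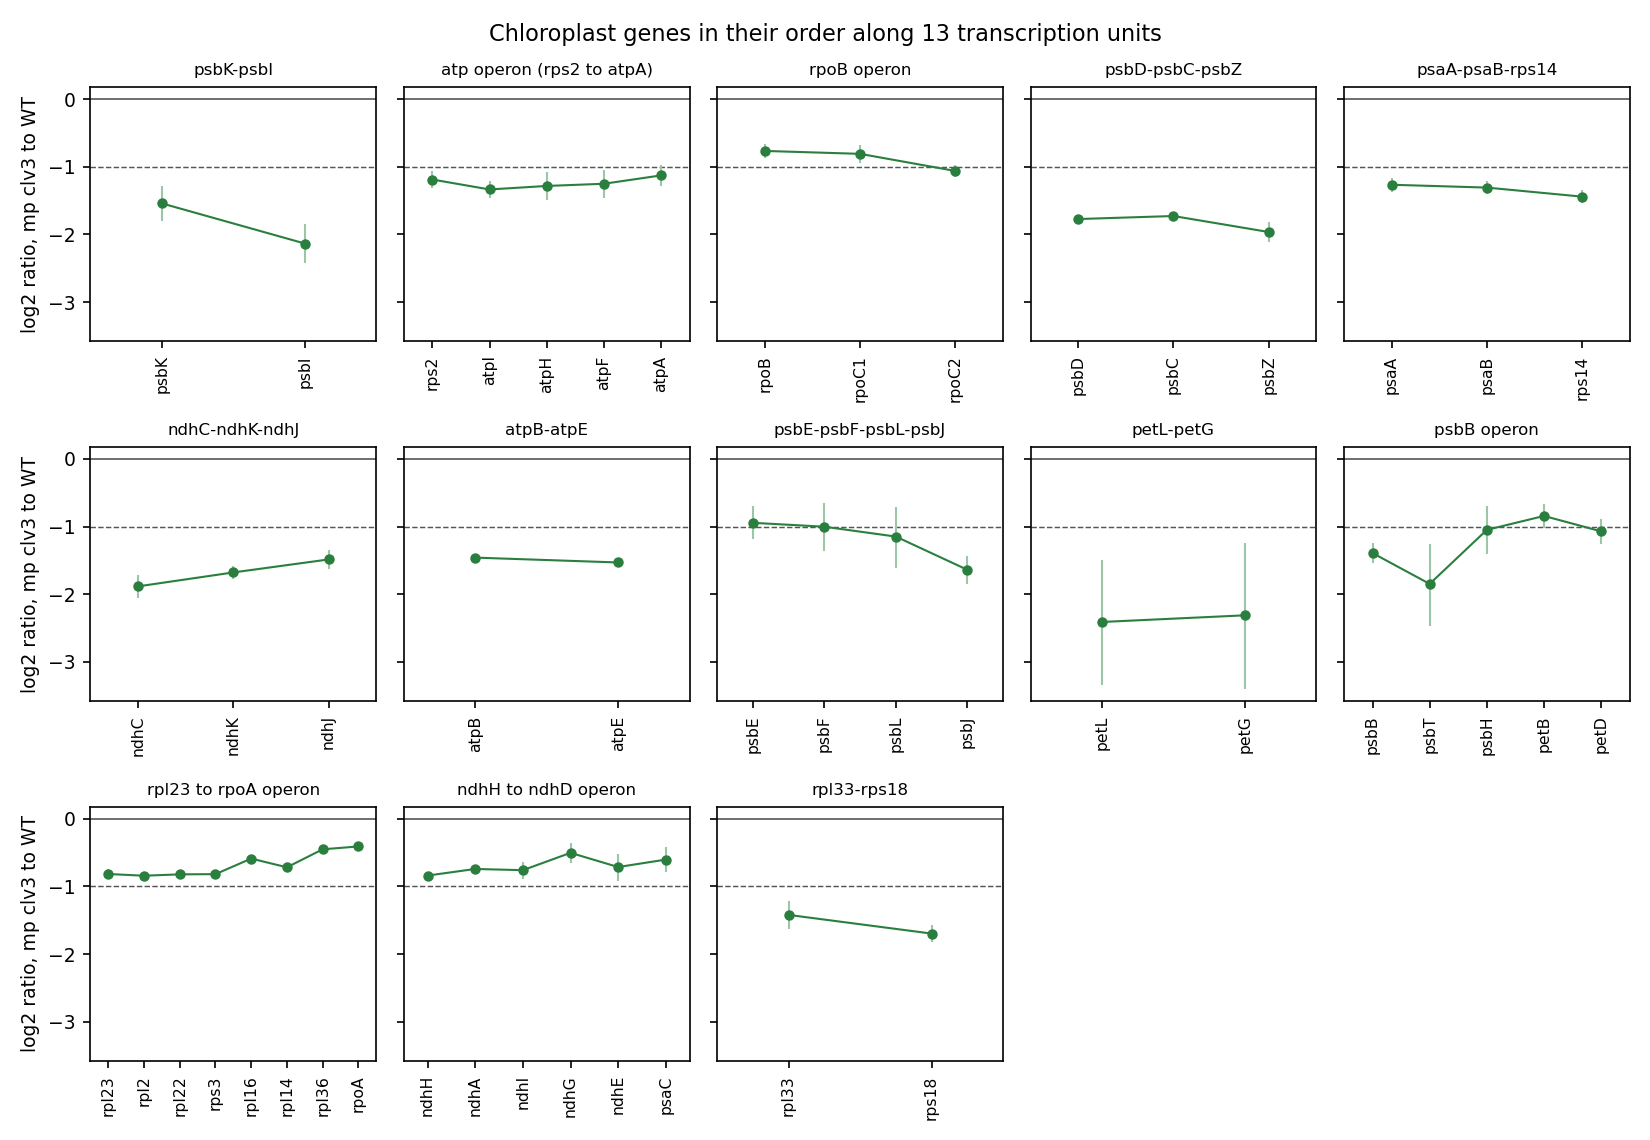
Log2 ratio of reads, mp clv3 to WT, for chloroplast genes in their order along 13 transcription units, with 95% counting intervals; the solid line marks no change, the dashed line 2-fold lower, and some genes are not drawn. The spread of ratios differs between units. Genes lie from -0.84 to -0.41 in the rpl23 to rpoA unit and from -1.96 to -1.73 in psbD-psbC-psbZ. The psbB unit is the widest.

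Genes that are read together had like ratios in some units and more widely spread ratios in others. Over 37 pairs of neighbours among the genes listed in 13 units, the median absolute difference of the log2 ratios was 0.13. The interquartile range over all 81 models was 0.71 and their SD was 0.52. These are unlike measures, and the difference between genes that are not neighbours was not computed. The unit atpB-atpE spanned 0.07, the unit psaA-psaB-rps14 spanned 0.18, and the 5 genes of the atp operon from rps2 to atpA spanned 0.21. The 3 genes of the rpoB operon ran from -1.06 to -0.77. The psbB operon was the widest: its photosystem II genes psbB, psbT and psbH were at -1.39, -1.85 and -1.05, and its cytochrome b6f genes petB and petD at -0.84 and -1.07, a range of 1.004. The unit psbE-psbF-psbL-psbJ spanned 0.69, with psbJ as its lowest member, and psbK-psbI spanned 0.59. Neighbours share overlapping RNAs and, in 3 pairs, overlapping coding bases, so they are not independent measurements. The RPKM in WT differed between the highest and lowest gene of a unit by 1.096-fold in atpB-atpE, 1.75-fold in the psbB operon, 6.15-fold in the rpl23 to rpoA unit and 9.09-fold in psaA-psaB-rps14.

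In tobacco, some plastid genes are transcribed by phage-type polymerase of the nucleus alone. Their 8 counterparts here (rpoB, rpoC1, rpoC2, accD, rpl33, rps18 and both copies of ycf2) were all called lower in the authors' deposited table, and 3 reached 2-fold. Of all models, 43.5% were called lower there and 21.3% at least 2-fold lower. The other 73 chloroplast models were also all called lower, and 47 of them reached 2-fold. The median log2 ratio of the 8 was -0.85, beside -1.18 for the other 73 chloroplast models. Within the set, rpl33 and rps18 at -1.42 and -1.70 were below the median of the photosynthesis genes, and the use of the nuclear polymerase alone is known here only from tobacco. No test of the difference between the sets was made.

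The promoters of the plastid-encoded polymerase resemble those of bacteria. The motif TTGACA, 16 to 19 bases, TATAAT was searched on the transcribed strand in the 300 bases before each of 74 distinct named genes, because it is the known form of these promoters. With at most 1 mismatch it stood before 3 genes (4.05%), and in 8 of 1028 windows of 300 bases tiled over both strands of the chloroplast genome (0.778%). The 3 matches are given 5′ to 3′ with both hexamers in capitals. They lie at Pltd:1530-1559 (minus strand), Pltd:113191-113220 (plus strand) and Pltd:112836-112864 (minus strand) of TAIR10.1.
psbA: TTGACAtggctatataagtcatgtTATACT
rpl32: TTTACAtatgatgtgaagaaatatTATAAT
ndhF: TTGACAgtaacttagtaatatttTTTAAT
The log2 ratios of these genes were -1.38 for psbA, -2.03 for rpl32 and -0.80 for ndhF, which spans much of the range of all chloroplast genes. With at most 2 mismatches the motif stood before 14 genes (18.9%), against 11.4% of the tiled windows. Over the 74 genes the fewest mismatches found had a Spearman rho of -0.02 with the log2 ratio. A match is a description of the letters and not a mapped promoter.

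Over all distinct genes, the percentage of A went with the ratio more than GC content did. Within the ribosomal protein genes and within the photosystem II genes it hardly did. Over 74 distinct genes, which share the same 2 columns, the percentage of A in the coding sequence had a Spearman rho of 0.44 with the log2 ratio, GC content 0.04, the longest run of A 0.22 and coding length 0.28. The classes differ in composition: the median percentage of A was 35.5 in ribosomal protein genes and 25 in photosystem II genes. Within the 19 ribosomal protein genes rho was 0.03, and within the 15 photosystem II genes 0.10. Without the ribosomal protein genes it was 0.44 over 55. The longest run of A in a coding sequence was 14 bases, in rpoA at Pltd:78087-78116 (minus strand), shown in 30 bases with the run in capitals.
rpoA: aacctaagAAAAAAAAAAAAAAcaaaagaa
rpoA had one of the ratios nearest to 0 among the chloroplast genes (-0.41). The part that poly(A) capture had in these differences was not tested. The 13 genes with coding sequences under 150 bases had a median log2 ratio of -1.78 with a range from -2.72 (psbM) to -0.45 (rpl36), beside -1.09 for the 61 longer ones.

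**Figure D4:**
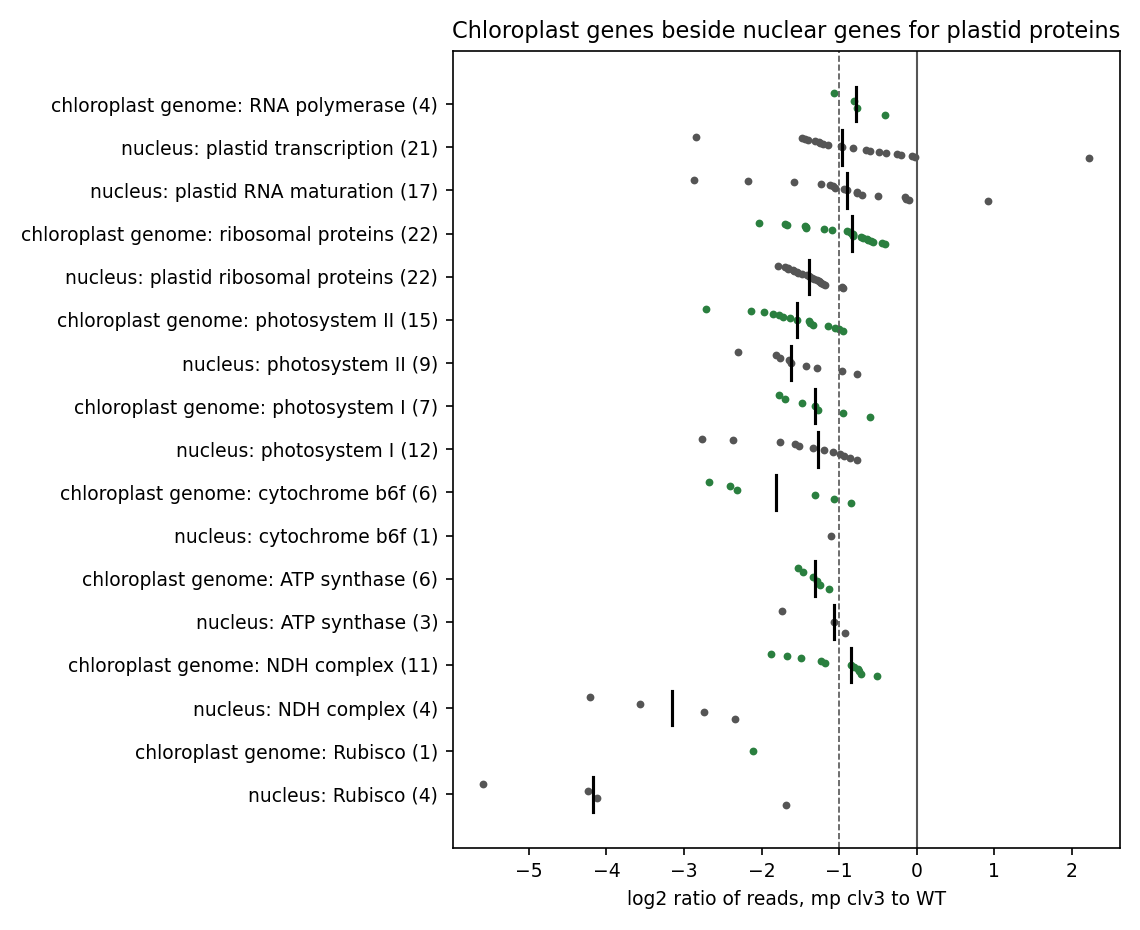
Log2 ratio of reads, mp clv3 to WT, for chloroplast-encoded genes (green) and nuclear genes (grey) that act in plastid gene expression or encode subunits of the same complexes, with the number of genes in brackets and black bars at the medians. The nuclear NDH genes all lie lower than their chloroplast partners, at a median of -3.16. The nuclear Rubisco genes have a median of -4.18 but run from -5.59 to -1.68, on both sides of rbcL at -2.11. Both sides of the photosystems overlap.

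Most of the 93 nuclear genes for plastid proteins that were read, in 4 lists, were lower as well. Of these, 89 were called lower in the authors' deposited table, where 43.5% of all models were called lower and 21.3% at least 2-fold lower. All 33 nuclear subunit genes of the photosynthetic complexes and Rubisco were among these; their median log2 ratio was -1.62, and 26 reached 2-fold. For photosystem II the median was -1.62 over 9 nuclear genes and -1.54 over 15 chloroplast genes. For photosystem I it was -1.27 over 12 nuclear and -1.31 over 7 chloroplast genes. For ATP synthase it was -1.07 over 3 nuclear and -1.31 over 6 chloroplast genes. In these 3 complexes the ranges of both sides overlapped. In the NDH complex the 4 nuclear genes lay between -4.21 and -2.34 and the 11 chloroplast models between -1.88 and -0.51, with no overlap.

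Rubisco is built from the chloroplast-encoded large subunit and nuclear-encoded small subunits. rbcL stood at -2.11. RBCS1A, the small subunit gene with the most reads, gave 404857 reads in WT and 127908 in mp clv3 (-1.68). RBCS3B gave 160411 in WT and 9357 in mp clv3 (-4.12). The other genes were lower still: RBCS1B gave 32459 and 1746 (-4.24), and RBCS2B 29851 and 628 (-5.59), in WT and mp clv3. These small subunit genes are near copies of one another, and reads may be divided between them. Of the other named subunits, PSBR, of photosystem II, gave 107598 reads in WT and 32260 in mp clv3 (-1.76). PSBO1, of the oxygen-evolving complex, gave 104341 in WT and 54437 in mp clv3 (-0.96).

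The 22 nuclear genes for plastid ribosomal proteins were all called lower in the authors' deposited table, and 20 reached 2-fold. Their median was -1.39, beside -0.83 for the 22 chloroplast models. PRPS5 gave 38298 reads in WT and 13947 in mp clv3 (-1.48). PRPS1 gave 34775 and 14448 (-1.29) in the same order. PRPL15 gave 33943 and 10879 (-1.66), and PRPL12A gave 31345 and 10906 (-1.54). The nuclear set kept within -1.78 (PRPL11, 13472 reads in WT and 3971 in mp clv3) and -0.95, a narrower range than the chloroplast set. PRPL35 gave 16319 and 5110 (-1.70).

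Of 21 nuclear genes of plastid transcription, 18 were called lower and 1 higher in the authors' deposited table, with a median of -0.97. PTAC3, a protein of the transcribing plastid chromosome, gave 13408 reads in WT and 6896 in mp clv3 (-0.98). PTAC10 gave 11418 and 4824 (-1.26), and PTAC12 gave 9519 and 3469 (-1.48). RPOTp, a phage-type plastid polymerase, gave 9422 and 6097 (-0.65). The sigma factors, which direct the plastid-encoded polymerase to promoters, differed among themselves. SIG4 gave 2567 reads in WT and 361 in mp clv3 (-2.85). SIG5, the 1 gene called higher and named here after its value was seen, gave 386 in WT and 1835 in mp clv3 (2.23). These were the extremes, and the other sigma factors listed lay between them, from -0.97 to -0.02. SIG5 is known for its action on the light-responsive promoter of psbD, and psbD stood at -1.77.

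Of 17 nuclear genes of plastid RNA maturation and stability, 16 were called lower and 1 higher in the authors' deposited table, with a median of -0.90. The RNA-binding proteins CP29A, CP31A and CP33A gave the most reads together with CSP41B. CP29A gave 101040 reads in WT and 47151 in mp clv3 (-1.12). CP31A gave 46653 and 22755 (-1.06). CP33A gave 12581 and 6064 (-1.07). CSP41B gave 15564 and 3492 (-2.18), and its relative CSP41A gave 12307 and 1706 (-2.87). The 1 called higher, HCF107, gave 4014 in WT and 7719 in mp clv3 (0.92) and was named after its value was seen. HCF107 is known to stabilise RNAs of the psbB operon that begin at psbH, and psbH stood at -1.05.

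The mitochondrial genes as a group did not follow the chloroplast genes. Their 111 models held 0.0480% of all reads in mp clv3 (49655 reads, 0.0475% to 0.0487%) and 0.0465% in WT (47325 reads, 0.0459% to 0.0471%), 1.03-fold higher (1.02 to 1.05). Of these models, 73 were called higher by the authors' deposited table, where 31.3% of all models were, and 44 were called at least 2-fold higher, where 9.85% of all models were. Only 5 were called lower in the authors' deposited table, none of them 2-fold, and 33 were not called. The median log2 ratio was 0.90 over the 107 with a ratio. That median rests largely on models with few reads: 48 models had at least 100 reads in a column, and their median was 0.69, with 34 called higher (40.7% of all such models were) and 5 lower. The 59 models with over 6 and under 100 reads had a median of 1.33, and 39 of them were called higher by the authors' deposited table, where 15.4% of all models in that range were. The median over all 3482 models in that range was -1.02.

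The near-equal share was made of parts with opposite directions, and 2 models stood out by their reads. ATMG00030, an open reading frame of 324 bases, gave 14147 reads in WT and 10554 in mp clv3 (-0.44). ATMG00370 gave 11042 reads in WT and 6031 in mp clv3 (-0.89). Together they held 53.2% of the mitochondrial reads in WT and 33.4% in mp clv3, and both were called lower in the authors' deposited table. Leaving them out, a step chosen after the values were seen, the other models gave 22136 reads in WT and 33070 in mp clv3, a share 1.47-fold higher (1.44 to 1.51) in mp clv3. At 429 and 181 RPKM in WT, they stood far above the next model, atp9, at 33.4 RPKM. A nuclear locus annotated as a copy of ATMG00370, AT2G07739, gave 5411 reads in WT and 2967 in mp clv3 (-0.89), the same ratio as its mitochondrial counterpart. The RefSeq note on this locus names the matching protein, that of ATMG00370, a Ycf1 protein. That is the name of a chloroplast-encoded protein. Sequence shared between ATMG00370 and the chloroplast genome was not searched, and the source of its reads was not tested.

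**Figure D5:**
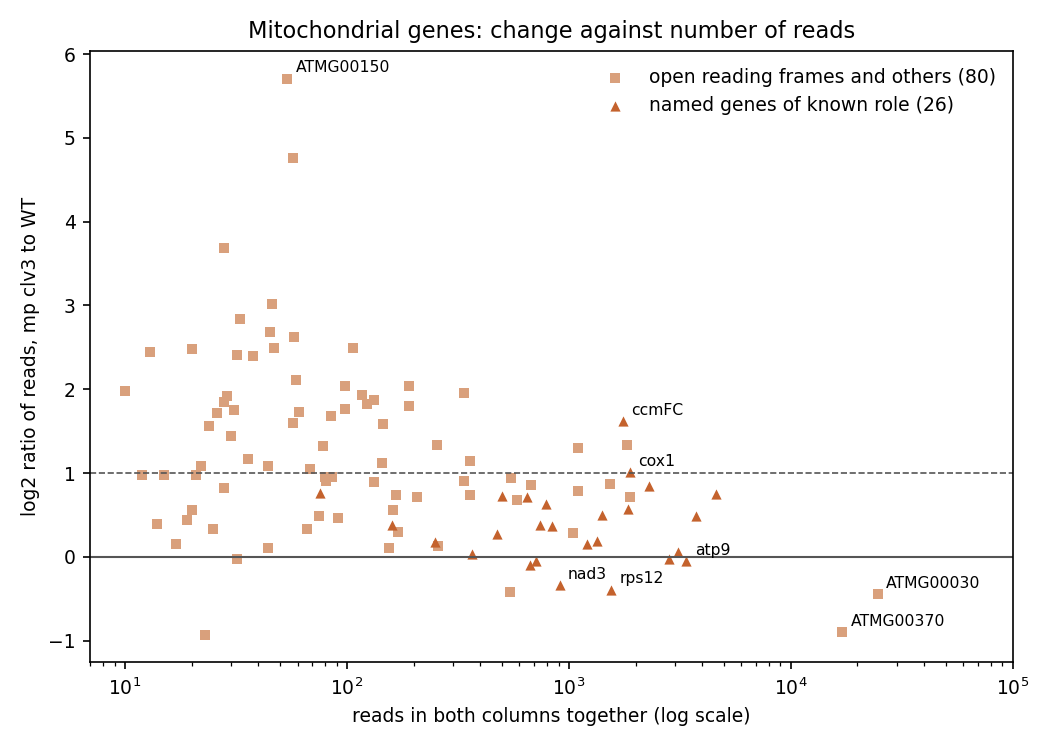
Log2 ratio of reads, mp clv3 to WT, of mitochondrial models (vertical) against their reads in both columns together (horizontal, log scale); triangles are 26 named genes and squares are other models, with the dashed line at 2-fold higher. The named genes lie between -0.39 and 1.62, the models with few reads spread up to 5.71, and the 2 models with the most reads lie below 0.

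The 26 named genes had a median log2 ratio of 0.37, with 15 called higher and 2 lower in the authors' deposited table, where 40.7% of all models with at least 100 reads were called higher and 49.3% lower. They varied by complex. Complex I, the NADH dehydrogenase at the entry of the chain, had a median of 0.02 over 6 genes. nad7 gave 1411 reads in WT and 1412 in mp clv3 (-0.02), and nad4 gave 1511 reads in WT and 1590 in mp clv3 (0.05). nad6 gave 358 reads in WT and 352 in mp clv3 (-0.04). These 3 were not called. nad3 was lower with 505 reads in WT and 405 in mp clv3 (-0.34), nad9 was higher with 584 reads in WT and 835 in mp clv3 (0.50), and nad4L gave 213 reads in WT and 262 in mp clv3 (0.28, interval -0.11 to 0.65).

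In complexes III and IV, which pass the electrons on to oxygen, cox1, for the catalytic subunit of cytochrome c oxidase, gave 619 reads in WT and 1265 in mp clv3, 2.01-fold higher (1.75 to 2.31). cox3 gave 320 reads in WT and 421 in mp clv3 (0.38). Neither cox2, with 566 reads in WT and 641 in mp clv3 (0.16), nor cob, for apocytochrome b, with 180 reads in WT and 187 in mp clv3 (0.03), was called in the authors' deposited table. Thus 3 subunits of one oxidase had ratios from 0.16 to 1.01.

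Of the mitochondrial ATP synthase, atp1, for the alpha subunit, gave 734 reads in WT and 1108 in mp clv3 (0.57). atp4 gave 365 reads in WT and 479 in mp clv3 (0.37), and atp6-1 gave 623 reads in WT and 722 in mp clv3 (0.19). atp8 gave 344 reads in WT and 326 in mp clv3 (-0.10). atp9, for the ring subunit and the named gene with the highest RPKM in WT, gave 1714 reads in WT and 1676 in mp clv3 (-0.05, interval -0.19 to 0.09). The catalytic-head gene atp1 had the highest ratio, and the genes of the membrane part lay between -0.10 and 0.37. The authors' deposited table called atp1, atp4 and atp6-1 higher, where 40.7% of all models with at least 100 reads were. It did not call atp8 or atp9. The exact test on read pairs did not call atp6-1 (interval -0.03 to 0.41).

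Cytochrome c maturation, which attaches haem to cytochrome c, had a median of 0.60 over 4 genes. ccmFC gave 428 reads in WT and 1332 in mp clv3, 3.07-fold higher (2.63 to 3.60), the highest ratio of the named genes. ccmB gave 242 reads in WT and 404 in mp clv3 (0.72). ccmFN1 gave 1551 reads in WT and 2201 in mp clv3 (0.48). The 4th, ccmC, gave 117 reads in WT and 134 in mp clv3 (0.18) and was not called.

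The 7 ribosomal protein genes of the mitochondrion had a median of 0.73. rps3 gave 1704 reads in WT and 2902 in mp clv3 (0.75), and rpl16, whose coding sequence overlaps it by 134 bases, gave 818 reads in WT and 1494 in mp clv3 (0.85). rps4 gave 187 reads in WT and 314 in mp clv3 (0.73), and rpl2 gave 307 reads in WT and 484 in mp clv3 (0.64). The authors' deposited table called all 4 higher. rps12 was lower, with 878 reads in WT and 680 in mp clv3 (-0.39). It begins 45 bases after nad3 on the same strand, and the pair had like ratios. rps7 and rpl5 had under 100 reads in both columns.

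The open reading frames and other unnamed models, 85 in all, had a median of 1.12, with 58 called higher and 3 lower in the authors' deposited table. Of all models, 31.3% were called higher there and 43.5% lower. The median of the unnamed models was 0.86 for those with at least 100 reads in a column, and 0.15 on log2(RPKM + 5). Besides the 2 models with the most reads, the 1 called lower was ATMG01000, with 310 reads in WT and 235 in mp clv3 (-0.42), whose locus number follows those of rps12 and nad3. ATMG01370 gave 517 reads in WT and 1323 in mp clv3 (1.33). ATMG00660 gave 708 reads in WT and 1175 in mp clv3 (0.71), and ATMG00690 gave 541 reads in WT and 1001 in mp clv3 (0.87). These were the 3 with the most reads in mp clv3 among the unnamed models called higher. ATMG01090 gave 314 reads in WT and 782 in mp clv3 (1.30). ATMG01170 gave 398 reads in WT and 699 in mp clv3 (0.79). ATMG00670 gave 470 reads in WT and 580 in mp clv3 (0.28). The ratios of these 3 ran from 0.28 to 1.30.

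A further group of models had 100 to 450 reads in mp clv3. ATMG01200 gave 238 reads in WT and 439 in mp clv3 (0.86). ATMG00530 gave 186 reads in WT and 362 in mp clv3 (0.94). ATMG01330 gave 222 reads in WT and 360 in mp clv3 (0.68). These 3 were higher by less than 2-fold. ATMG01020 gave 68 reads in WT and 268 in mp clv3 (1.96). ATMG00040 gave 111 reads in WT and 249 in mp clv3 (1.14). ATMG01280 gave 133 reads in WT and 226 in mp clv3 (0.74). The authors' deposited table called all 3 higher, and the first had the largest ratio. ATMG01130 gave 117 reads in WT and 222 in mp clv3 (0.90). ATMG00810 gave 72 reads in WT and 184 in mp clv3 (1.33). ATMG00820 gave 37 reads in WT and 154 in mp clv3 (2.04, interval 1.26 to 2.81). The last had the highest ratio of all mitochondrial models with at least 100 reads. ATMG00300 gave 42 reads in WT and 149 in mp clv3 (1.81). ATMG01350 gave 122 reads in WT and 135 in mp clv3 (0.13). ATMG00400 gave 78 reads in WT and 130 in mp clv3 (0.72). Of these, ATMG01350 was not called in the authors' deposited table. ATMG01060 gave 36 reads in WT and 110 in mp clv3 (1.59). ATMG00170 gave 62 reads in WT and 105 in mp clv3 (0.74). ATMG00940 gave 28 reads in WT and 104 in mp clv3 (1.87). The authors' deposited table called all 3 higher.

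Of the 63 models with under 100 reads in both columns, the authors' deposited table called 39 higher and none lower. The exact test on read pairs, adjusted over all models, called fewer mitochondrial models higher: 55 of the 111, against a background of 28.7%, and after TMM scaling (a scaling to the bulk of the models) 59, against 32.5%. It called 5 lower (38.8% of all models were), and 3 after TMM scaling (34.8%). A total of 2 models had 0 reads in WT. One of them, ATMG01300, had 22 reads in mp clv3, at least 3.61-fold higher against the limit of 6 reads per column that a count of 0 read pairs allows, and for the other, ATMG00770, no ratio was given. Both were below 100 reads and are named because of their count of 0. The highest ratios rest on very few reads. ATMG00150 gave 1 read in WT and 53 in mp clv3 (log2 ratio 5.71, interval 2.13 to 10.09), and ATMG01050 gave 2 in WT and 55 in mp clv3 (4.76, interval 2.19 to 10.14).

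Many mitochondrial genes have copies in the nucleus, which limits what their reads can be said to come from. The nuclear chromosome 2 of Arabidopsis is known to carry a large insertion of mitochondrial DNA. Of the 26 named genes, 18 had at least 90% of their coding sequence at 99% identity or more in the nuclear genome of TAIR10.1, 4 had a part and 4 had none. The first 100 bases of atp9 show this. They lie at MT:271086-271185 (minus strand) of the mitochondrial genome of 367808 bases, and the same 100 bases lie on chromosome 2 at positions 3251981 to 3252080 (minus strand).
atp9: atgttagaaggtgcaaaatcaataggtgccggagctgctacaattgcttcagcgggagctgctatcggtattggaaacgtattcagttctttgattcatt
The first 100 bases of nad3 also had an exact match on chromosome 2, and those of cox1 had none. The 18 genes with a nearly whole nuclear copy had a median log2 ratio of 0.18, the 4 with a part (nad9, rpl16, rps3 and cox1) 0.80, and the 4 with none (ccmB, cox2, atp4 and nad4L) 0.32. Of the latter 4, 3 were called higher by the authors' deposited table, where 40.7% of all models with at least 100 reads were. Among these 3, nad4L had an interval of -0.11 to 0.65 and was not called by the exact test on read pairs. The part of nuclear copies in these ratios was not tested.

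The nuclear loci themselves received reads. Of 41 nuclear loci annotated as matching a mitochondrial model, 25 were called higher and 5 lower in the authors' deposited table, where 31.3% of all models were called higher and 43.5% lower, and their median log2 ratio was 0.60. In 16 pairs both sides had at least 100 reads, in 14 of these both ratios had the same sign, and the median absolute difference was 0.10. The nuclear copy of atp9 (AT2G07671) gave 1955 reads in WT and 1852 in mp clv3, and that of atp1 (AT2G07698) gave 1208 and 1845. The nuclear copy of nad3 (AT2G07751) gave 289 and 237 reads and that of rps12 (AT2G07675) 966 and 770, both lower like their mitochondrial counterparts. The pair of ccmFC stood apart: the nuclear locus AT2G07815 was at 0.60 and the mitochondrial model at 1.62. How reads that match both copies were divided is unknown from the sources used here, and the part of each genome in these reads was not tested. The chloroplast genes were different in this respect: none of the 79 named models had 90% of its coding sequence in the nuclear genome, 14 had a part of at most 14%, and 65 had none. Their median log2 ratios were -1.01 with a part and -1.25 with none.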

How the data were processed

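Per the submitters' processing notes, CASAVA 1.7, BWA and the TAIR10 build were used, with no role given for each. The table the authors deposited holds, per genotype, 1 column of reads, handled here as estimated counts (whole numbers, with 0 written as 0.5 and set back to 0), and 1 column of RPKM, which are these reads scaled by model length and total. The labels give 2 biological replicates per genotype (strand-specific libraries, paired reads of 100 bases); the sources used here do not say whether a column pools them. The false discovery rates (adjusted p-values) and log2 ratios are also the authors' deposited values; the test behind them is not given, and a call compares these columns, not replicates. The edgeR test set out for replicate columns could not be fitted. Of 27323 models, 1 with shifted cells was left out. Depth was 103347441 (mp clv3) and 101878433 (WT) reads.

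Ratios were computed from reads over the column total, with 95% exact (Clopper-Pearson) intervals on read pairs, which cover counting error only. A count of 0 was set to a limit of 6 reads (3 pairs), and no ratio was given where both columns had at most 6 reads. Calls used a false discovery rate under 0.05, and the same with at least 2-fold. An exact binomial test on read pairs with Benjamini-Hochberg adjustment over all models (tested on simulated data) and TMM scaling (edgeR 4.0.16, R 4.3.3) were alternatives. Other steps used Python 3.11.15, SciPy 1.17.1 and BLAST 2.17.0 (hits of at least 99% identity counted as copies).

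The locus identifiers were paired with gene names where the model length equalled the RefSeq coding length of that gene, or later exons or another in-frame start of it, or where a RefSeq annotation note named it: 79 of 81 chloroplast and 26 of 111 mitochondrial models. Sequences and their coordinates are from RefSeq TAIR10.1 and were found by gene name, since the table holds no coordinates. Values are given for members with at least 100 reads in a column; of each nuclear list, the 4 genes with the most reads in WT and the 2 called with the smallest false discovery rate are named. The members and lists were chosen with earlier results of these data known. The values of 2 chloroplast genes are not reported here, though counts, medians and shares over groups include them.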

Additional observations from a re-analysis of the deposited data

How the results depend on the processing

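No paired analysis was possible because the table has 1 column per genotype and no replicate numbers; for the same reason, leaving out each replicate was not run. All 81 chloroplast models kept their call at a false discovery rate under 0.01, and 80 were called lower by the exact test on read pairs, with or without TMM scaling. TMM scaling adds 0.09 to every log2 ratio and moves the median of all models from -0.15 to -0.05. The ratio of chloroplast shares, mp clv3 to WT, was 0.467, 0.511 from RPKM, 0.485 without the member with the most reads and 0.498 after TMM scaling. The ratio of mitochondrial shares was 1.03, 1.16 without the member with the most reads, 1.104 after TMM scaling and 1.47 without the 2 members with the most reads, a setting chosen after seeing the data. The chloroplast median went from -1.13 to -0.87 on log2(RPKM + 5), a pseudocount that pulls low levels towards 0. The mitochondrial median, 0.90, ranged from 0.15 on that scale to 0.99 after TMM scaling. The span between the highest and lowest medians of the chloroplast classes of at least 4 genes, which leaves out rbcL and the unnamed models, was 1.02; it was 0.75 with members of at least 100 reads, 0.78 on log2(RPKM + 1) and 0.75 on log2(RPKM + 5). The number of mitochondrial models called higher was 73, and 34 with at least 100 reads; the number called lower was 5, and 3 by the exact test with TMM scaling. The rise of the ribosomal protein genes' share of chloroplast reads was 10.4 percentage points, and 9.82 without the member with the most reads. No median of a class or of a nuclear list changed sign. At 6 or fewer reads no difference could be detected.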
